A study of Sus scrofa with 17 samples.

Results

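The core circadian clock of longissimus muscle was described here in young pigs fed a green seaweed with or without an enzyme that degrades its cell wall. The description covers 10 genes of the 31908 in the count table: the transcriptional activators ARNTL (also called BMAL1), CLOCK and NPAS2, the repressors PER1, PER2, PER3, CRY1 and CRY2, and the nuclear receptors NR1D1 and NR1D2. They were chosen by their known place in the loop and with their CPM (counts per 1000000 reads) in the 3 diets already seen, so the levels and the differences between diets of these 10 genes are given as descriptions, with no p-value for any of them, and counts of those past a threshold are descriptions too. All 10 had a row in the table and all 10 were among the 14203 genes that passed the filter on low counts.

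The samples came from male Large White × Duroc piglets, aged 28 days at the start, that were housed singly in metabolic cages, pair-fed, and kept on their diet for 2 weeks after 5 days of adaptation. The control diet was based on wheat, maize and soybean meal. In the UL diet, 7% Ulva lactuca replaced part of the control diet, and the ULU diet held the same 7% Ulva lactuca plus 0.01% ulvan lyase, an enzyme that cuts the cell wall polysaccharide ulvan. RNA-seq libraries were analysed here from 6 control, 6 UL and 5 ULU piglets, 1 library per piglet. The labels and methods used here give neither the hour of slaughter nor the time since the last meal of each piglet, and since clock transcripts change over the day, the part of either in the values below was not tested.

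The clock is a feedback loop that most cells of the body run. ARNTL pairs with CLOCK, or with its close relative NPAS2, and the pair binds E-box elements and turns on the PER and CRY genes. The PER and CRY proteins gather, return to the nucleus and block that pair, so transcripts of ARNTL and of the PER genes peak at nearly opposite times of day. NR1D1 and NR1D2 (REV-ERB alpha and beta) repress ARNTL and so form a second loop. In skeletal muscle the clock is known to time genes of glucose and lipid use, and feeding time and glucocorticoids are known inputs to it.

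Counted reads per library ranged from 16137365 to 26546810, and the detection limit of 3 reads equalled 0.130 to 0.195 CPM (counting error only). The muscle markers ACTA1 and CKM averaged 82720 and 20960 CPM over all libraries. Of the 2 blood markers, SLC4A1 was at or near 0 (0 to 2 reads), whereas ALAS2 was detected at 8 to 64 reads (mean 1.91 CPM). The share of counts in mitochondrial genes averaged 14.8% ± 0.70 over the 6 control libraries (SD), 11.6% ± 2.11 over the 6 UL libraries (SD) and 10.2% ± 1.47 over the 5 ULU libraries (SD), with all 5 ULU libraries below all 6 control libraries (exact two-sided permutation test, p = 0.00433, the smallest it can give for 5 against 6; adjusted p = 0.13 over 30 tests of library measures). The summed CPM of 5 muscle fibre markers ranged from 86370 to 148200 in control, from 115000 to 161100 in UL and from 131200 to 233500 in ULU. Summed over 5 fat markers, including LEP at 0 to 30 reads, the ranges were 75.8 to 579 CPM in control, 54.9 to 179 CPM in UL and 25.1 to 142 CPM in ULU. The marker sums of endothelium, leukocytes, fibroblasts and blood overlapped among all 3 diets. None of the 30 tests had an adjusted p under 0.05. At 5 against 6 libraries, 1 fully separated measure alone could not reach that limit, so this does not show that the libraries were alike. The part of the marker sums in the values of single genes was not tested. Fits with the number of counted reads as a covariate and without the mitochondrial genes are given further on. In muscle tissue taken whole, fewer cells of a type and less RNA per cell cannot be told apart.

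**Figure D1:**
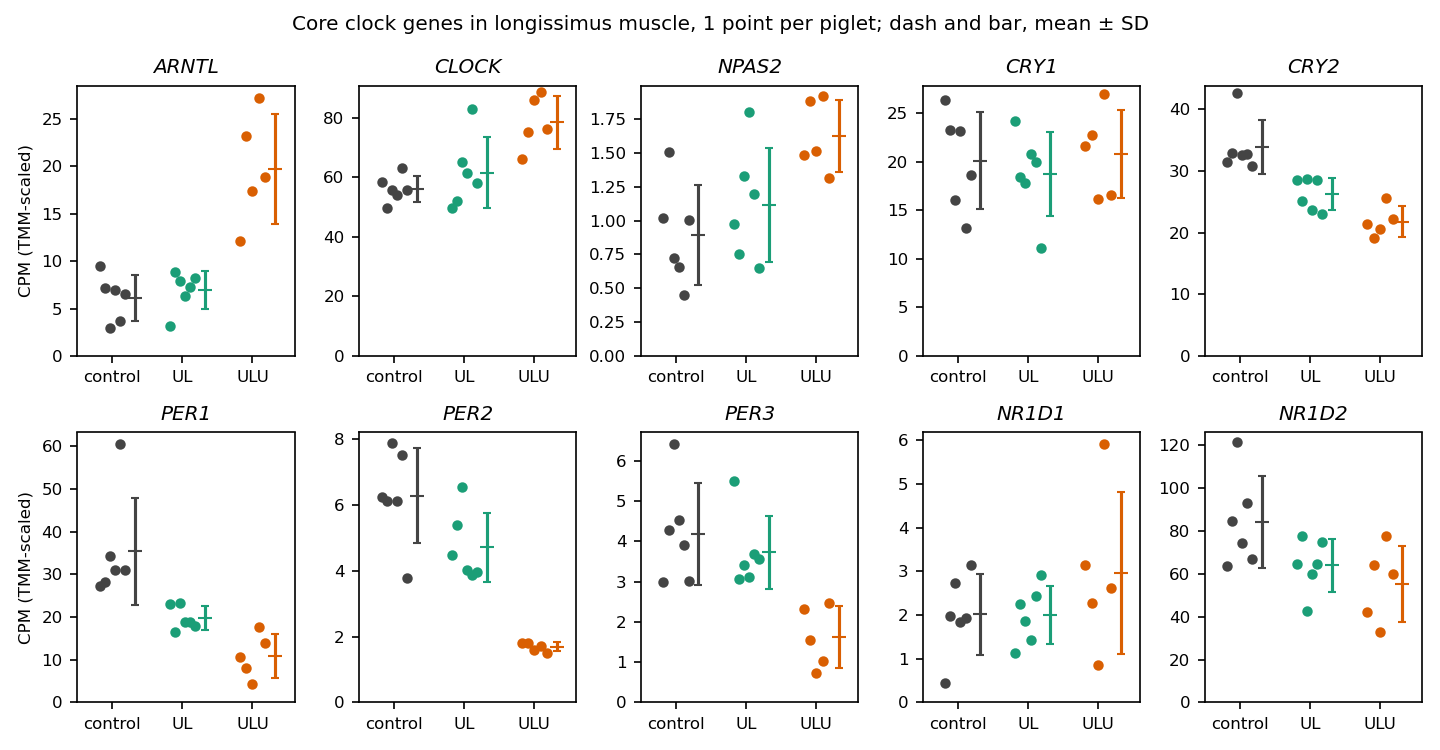
CPM of each of the 10 core clock genes (vertical axes from 0, one scale per gene) in every piglet, by diet, with the diet mean and SD beside the points. The ULU points lie apart from the control points for ARNTL and CLOCK (higher) and for CRY2, PER1, PER2 and PER3 (lower).

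Among the activators, ARNTL (ENSSSCG00000013397, chromosome 2, 45895289 to 46025165, minus strand, Sscrofa11.1), the partner without which the loop does not run, showed the widest separation. The 6 control piglets ranged from 2.91 to 9.48 CPM with a median of 6.76 CPM, and the 6 UL piglets from 3.19 to 8.90 CPM with a median of 7.57 CPM. The 5 ULU piglets had 12.1, 23.2, 17.4, 27.3 and 18.9 CPM. Each ULU piglet was therefore above every control and every UL piglet, while control and UL covered nearly the same range. The ULU mean of 19.8 ± 5.78 CPM (SD, n = 5) was 3.22 times the control mean of 6.13 ± 2.42 CPM (SD, n = 6). The fitted log2(fold change) was 1.69 (standard error, SE, 0.28) for ULU vs control, 1.51 (SE 0.28) for ULU vs UL and 0.18 (SE 0.27) for UL vs control. These values rested on 48 to 554 reads per library. An unnamed gene inside the span of ARNTL on the same strand (ENSSSCG00000047262) shares no exonic base with it and had a log2(fold change) of 1.03 (SE 0.42) for ULU vs control, which did not pass the test (adjusted p = 0.188, edgeR).

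CLOCK (ENSSSCG00000008909, chromosome 8, 54788864 to 54910146, minus strand), which forms the activating pair with ARNTL, stood much closer among diets. Control piglets ranged from 49.8 to 63.0 CPM (median 55.7 CPM) and UL piglets from 49.6 to 82.9 CPM (median 59.7 CPM), and the ULU piglets had 66.3, 75.4, 85.8, 88.7 and 76.4 CPM. All 5 ULU piglets were above all control piglets, but UL piglet 31, at 82.9 CPM, lay among them. The mean in ULU, 78.5 ± 8.95 CPM (SD, n = 5), was 1.40 times that in control (56.1 ± 4.38 CPM, SD, n = 6). The log2(fold change) of ULU vs control was 0.48 (SE 0.12).

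NPAS2 (ENSSSCG00000008171, chromosome 3, 53298863 to 53438910, minus strand), which can stand in for CLOCK, was near the limit of what this depth resolves, with 10 to 39 reads per library. It ranged from 0.450 to 1.51 CPM in control (median 0.865 CPM) and from 0.649 to 1.80 CPM in UL (median 1.09 CPM), and the ULU piglets had 1.48, 1.88, 1.52, 1.92 and 1.31 CPM. Of the 5 ULU piglets, 3 were above all control piglets, and the ranges overlapped in all 3 comparisons. For ULU vs control the log2(fold change) was 0.85 (SE 0.32).

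The 3 PER genes, the rhythmic part of the repressing complex, had lower means in ULU than in either other diet. PER2 (ENSSSCG00000016338, chromosome 15, 137793419 to 137837236, minus strand) had between 3.77 and 7.87 CPM in control (median 6.18 CPM) and between 3.87 and 6.53 CPM in UL (median 4.25 CPM), against 1.79, 1.82, 1.60, 1.72 and 1.51 CPM in the ULU piglets. The highest ULU piglet had less than 0.5 times the CPM of the lowest control or UL piglet. The control mean of 6.27 ± 1.45 CPM (SD, n = 6) was 3.71 times the ULU mean of 1.69 ± 0.13 CPM (SD, n = 5), and the UL mean of 4.71 ± 1.05 CPM (SD, n = 6) lay between them. The log2(fold change) was -1.89 (SE 0.20) for ULU vs control, -1.48 (SE 0.20) for ULU vs UL and -0.41 (SE 0.18) for UL vs control. Reads per library were 79 to 167 in control, 61 to 147 in UL and 28 to 41 in ULU. The coefficient of variation among the 5 ULU piglets was 7.78%, below the 17.1% that counting error alone gives at their mean read number, so the closeness of these 5 values is not a measure of how alike the animals were.

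PER1 (ENSSSCG00000017983, chromosome 12, 53361868 to 53376611, minus strand), the PER gene that glucocorticoids and cAMP also induce directly, differed in steps from control to UL to ULU. Control piglets ranged from 27.3 to 60.4 CPM (median 31.0 CPM), UL piglets from 16.5 to 23.3 CPM (median 18.8 CPM), and the ULU piglets had 10.6, 8.12, 4.24, 17.7 and 13.9 CPM. No UL or ULU piglet reached the lowest control piglet, and 4 of the 5 ULU piglets were below all UL piglets. The means were 35.4 ± 12.5 CPM (SD, n = 6), 19.7 ± 2.81 CPM (SD, n = 6) and 10.9 ± 5.18 CPM (SD, n = 5). For UL vs control, the log2(fold change) was -0.84 (SE 0.25), with -1.70 (SE 0.28) for ULU vs control and -0.86 (SE 0.27) for ULU vs UL. The control mean was raised by piglet 25, at 60.4 CPM, since the other 5 control piglets had at most 34.3 CPM. Without it the log2(fold change) was -1.48 for ULU vs control and -0.62 for UL vs control.

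PER3 (ENSSSCG00000028572, chromosome 6, 68488263 to 68534004, plus strand), a PER paralogue that the loop can do without, ranged from 2.99 to 6.42 CPM in control (median 4.10 CPM) and from 3.06 to 5.51 CPM in UL (median 3.50 CPM). The ULU piglets had 2.31, 1.56, 0.736, 1.03 and 2.48 CPM, all below every other piglet. The control mean was 4.19 ± 1.27 CPM (SD, n = 6), the UL mean 3.73 ± 0.90 CPM (SD, n = 6) and the ULU mean 1.62 ± 0.77 CPM (SD, n = 5). Fitted log2(fold change) values were -1.36 (SE 0.30) for ULU vs control, -1.20 (SE 0.29) for ULU vs UL and -0.17 (SE 0.27) for UL vs control. PER3 had only 17 to 107 reads per library, and it shares 998 exonic bases with a second gene model on the same strand (ENSSSCG00000046937, 1 to 15 reads per library), so reads in the shared stretch were counted for neither.

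The 2 CRY genes, which carry most of the repression of the ARNTL and CLOCK pair, differed in pattern. CRY2 (ENSSSCG00000013270, chromosome 2, 16585966 to 16620405, minus strand) ranged from 30.8 to 42.6 CPM in control (median 32.6 CPM) and from 23.1 to 28.7 CPM in UL (median 26.8 CPM), and the ULU piglets had 21.4, 19.2, 20.6, 25.7 and 22.2 CPM. All UL and all ULU piglets were below all control piglets, and 4 of the 5 ULU piglets were below all UL piglets. The log2(fold change) was -0.37 (SE 0.10) for UL vs control, -0.63 (SE 0.11) for ULU vs control and -0.27 (SE 0.11) for ULU vs UL. CRY1 (ENSSSCG00000000164, chromosome 5, 13275544 to 13364594, plus strand) had similar levels in the 3 diets, from 13.2 to 26.4 CPM in control (median 20.9 CPM), from 11.2 to 24.2 CPM in UL (median 19.2 CPM) and at 21.7, 22.8, 16.2, 27.0 and 16.6 CPM in the ULU piglets. Its log2(fold change) for ULU vs control was 0.05 (SE 0.20), with the sign turning without ULU piglet 43 (-0.06), control piglet 25 (-0.05) or control piglet 23 (-0.005).

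NR1D2 (ENSSSCG00000027017, chromosome 13, 10756926 to 10791210, plus strand), the REV-ERB of the pair with the higher level here, ranged from 63.8 to 122 CPM in control (median 79.6 CPM) and from 42.4 to 77.5 CPM in UL (median 64.6 CPM). The ULU piglets had 42.1, 64.1, 32.7, 77.6 and 59.7 CPM, so 3 of 5 were below all control piglets and the ranges overlapped. The log2(fold change) was -0.61 (SE 0.21) for ULU vs control and -0.40 (SE 0.20) for UL vs control. NR1D1 (ENSSSCG00000036933, chromosome 12, 22263657 to 22271643, plus strand), the other REV-ERB, was low and scattered, at 7 to 120 reads per library. It ranged from 0.445 to 3.15 CPM in control (median 1.96 CPM) and from 1.13 to 2.92 CPM in UL (median 2.06 CPM), and the ULU piglets had 3.14, 2.27, 0.866, 5.91 and 2.62 CPM. The log2(fold change) of NR1D1 for ULU vs control was 0.55 (SE 0.42), and 0.13 without ULU piglet 43, so the ULU mean rested largely on that piglet. NR1D1 also shares 474 exonic bases with THRA on the opposite strand. The counting did not use strand, so reads in that stretch were assigned to neither gene. THRA, the thyroid hormone receptor alpha gene, had a log2(fold change) of 0.67 for ULU vs control (SE 0.21, adjusted p = 0.0807, edgeR).

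**Figure D2:**
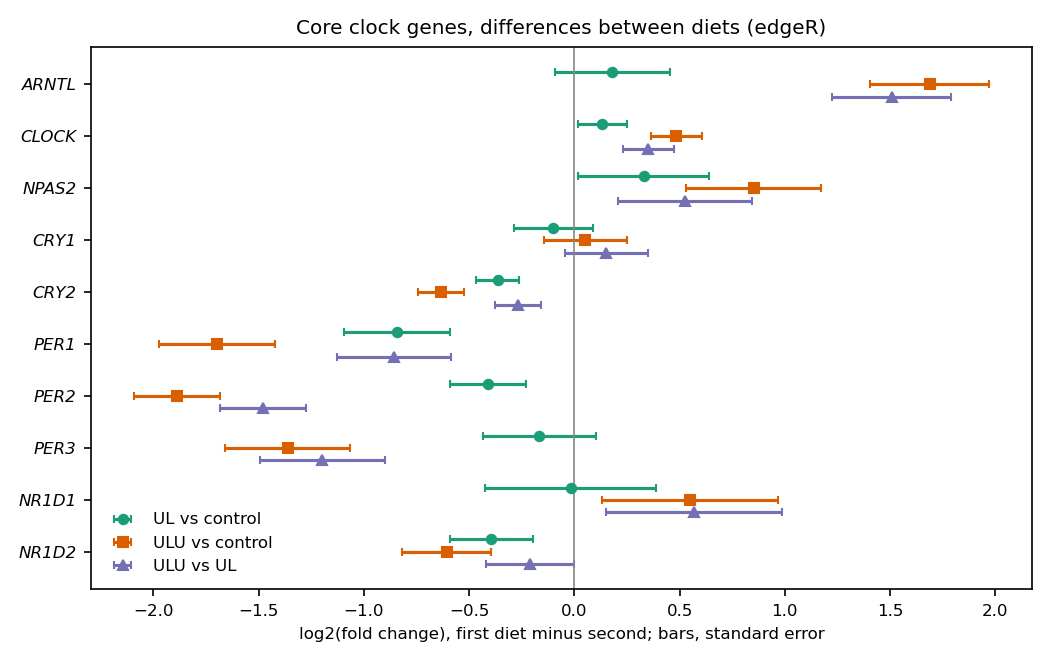
Fitted log2(fold change) of each core clock gene (horizontal axis, first diet minus second; bars, standard error) for the 3 comparisons of diets. In ULU vs control the points run from -1.89 for PER2 to 1.69 for ARNTL, with CRY1 at 0.05.

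Counts of these genes are set beside the share of all tested genes, from which nothing is read because the set was chosen with these differences known. In ULU vs control, the ranges of the 2 diets did not overlap for 6 of the 10 genes, 2 higher in ULU (ARNTL and CLOCK) and 4 lower (CRY2, PER1, PER2 and PER3), beside 3.39% of all 14203 genes. The same 6 genes had an adjusted p under 0.05, beside 2.98% of all genes, and 4 of them (ARNTL, PER1, PER2 and PER3) also differed by 1 or more on the log2 scale, beside 0.415%. With both limits a gene is called differentially expressed (DEG) here. In UL vs control, no core clock gene and 0.0% of all genes had an adjusted p under 0.05, 0.0% were DEGs, and CRY2 and PER1 (both lower in UL) had ranges that did not overlap, beside 0.852%. In ULU vs UL, PER2 alone was called by either limit, beside 0.0352% by adjusted p and 0.0141% as DEGs. There, 3 core clock genes did not overlap, ARNTL (higher) and PER2 and PER3 (lower), beside 1.76%. The 3 comparisons share piglets, so their values stand side by side and are not independent of each other.

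In ULU vs control, ARNTL, PER1 and PER2 stayed past both limits in all 17 fits that omitted one library and in all 7 other fits, which describes the same values that chose the genes. PER3 fell short without control piglet 23 (log2(fold change) -1.20) or ULU piglet 43 (-1.24), and in 3 of the 7 other fits, namely DESeq2 and edgeR on the 2 diets alone and the fit with the number of counted reads as a covariate. In ULU vs UL, ARNTL passed both limits only without control piglet 21 or control piglet 23, at the same log2(fold change) of 1.51, and with no filter on low counts (1.52). Leaving out one library at a time kept the ULU vs control log2(fold change) between 1.54 and 1.85 for ARNTL and between -1.99 and -1.82 for PER2. With the mitochondrial genes left out of the fit, an alternative added after the data were seen, those values were 1.70 for ARNTL and -1.88 for PER2. With the number of counted reads as a covariate, the ULU vs control values were 1.86 for ARNTL, -2.06 for PER1, -1.98 for PER2, -1.25 for PER3 and 0.33 for NR1D1.

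The relation of activator to repressor transcripts can be read within a library, where depth and scaling cancel. The ratio of ARNTL to PER2 reads ranged from 0.369 to 1.73 in control (median 1.16) and from 0.713 to 2.07 in UL (median 1.61). In the ULU piglets it was 6.76, 12.8, 10.8, 15.8 and 12.6. The lowest ULU library thus had over 3 times the ratio of the highest control or UL library. ARNTL to PER1 gave 0.0619 to 0.347 in control (median 0.218), 0.138 to 0.540 in UL (median 0.361) and 1.14 to 4.09 in ULU (median 1.54). CLOCK to CRY2 separated ULU from control too, at 3.10 to 4.17 (median 3.45) against 1.31 to 1.93 (median 1.74), and UL, at 1.73 to 2.91 (median 2.39), overlapped with control and lay below ULU. These ratios combine values that chose the genes and add no independent evidence.

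**Figure D3:**
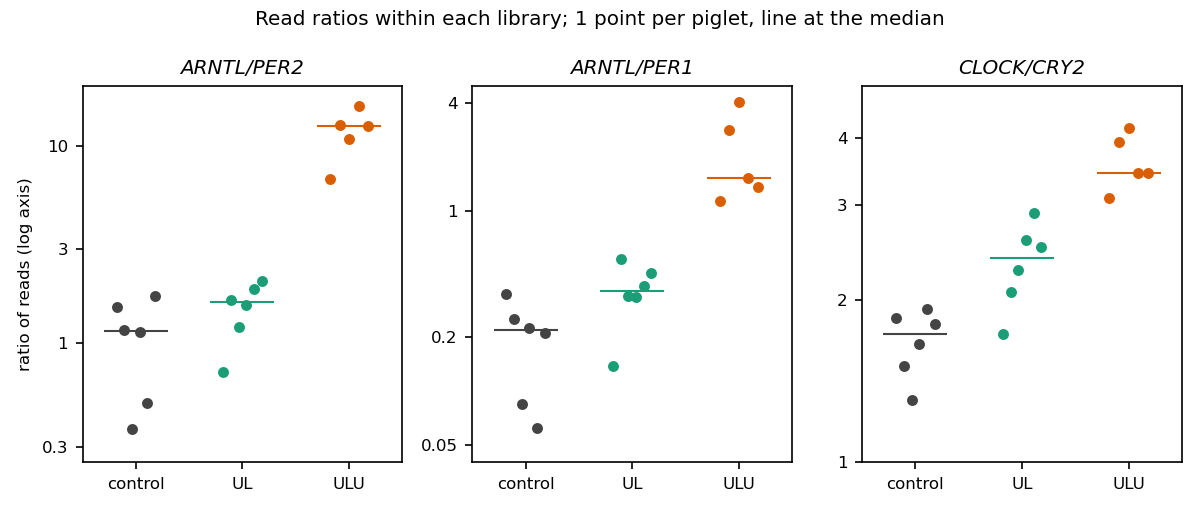
Ratio of reads of 2 clock genes within each library (vertical log axes), by diet, with 1 point per piglet and a line at the median. The 5 ULU libraries lie above all others for each ratio, from 6.76 to 15.8 for ARNTL to PER2.

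Per kilobase of exon, NR1D2 had the highest mean in every diet, and the order of the other genes differed among diets. The lengths of NR1D1 and PER3 include the bases shared with another gene, where no reads were counted. Their levels per kilobase are therefore too low, and their places in the order are not exact. In control, NR1D2 had the highest mean, 16.1 ± 4.10 CPM per kb (SD, n = 6), and its range did not overlap with the next gene. CRY2, PER1, CRY1 and CLOCK followed at 6.47, 6.34, 5.28 and 5.25 CPM per kb, and neighbours in that order overlapped. ARNTL, PER2, NR1D1 and PER3 formed a lower tier, from 1.21 down to 0.711 CPM per kb, also with overlapping neighbours. NPAS2 had the lowest mean, 0.142 ± 0.059 CPM per kb (SD, n = 6). Its range did not overlap with that of PER3. It did overlap with that of NR1D1, since NPAS2 reached 0.240 CPM per kb and NR1D1 went down to 0.169 CPM per kb. In UL the order was NR1D2, CLOCK, CRY2, CRY1, PER1, ARNTL, NR1D1, PER2, PER3 and NPAS2, with NR1D2, PER1 and PER3 each apart from the gene after it. In ULU, every neighbour in the order overlapped with the next. ARNTL stood at 3.91 ± 1.14 CPM per kb (SD, n = 5), beside CRY2 at 4.17 CPM per kb and above PER1 at 1.95 CPM per kb, and PER2, at 0.236 ± 0.018 CPM per kb (SD, n = 5), was level with NPAS2 at 0.258 CPM per kb.

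Piglets of one diet also differed from each other. ULU piglet 43 had the highest value of its diet for 8 of the 10 genes, activators and repressors alike, and ULU piglet 42 the lowest for 5. Control piglet 23 had the highest CRY2, PER2, PER3 and NR1D2 and the lowest ARNTL of its diet, with 48 ARNTL reads against 130 PER2 reads. The spread differed by gene. In control the coefficient of variation was 7.81% for CLOCK and 25.4% for NR1D2, but 35.3% for PER1, 39.4% for ARNTL and 46.0% for NR1D1, where counting error alone gives 3.05%, 2.49%, 3.80%, 9.28% and 15.9%.

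Whether the genes moved together from piglet to piglet was tested on the departure of each library from the mean log2 CPM of its diet, which the choice of genes did not use. Of the 45 pairs, 0 had an adjusted p under 0.05 by Pearson's r or by Spearman's rho (permutation within diets, 17 libraries), and 3 had an unadjusted p under 0.05 by Pearson's r. NPAS2 and CRY1 gave r = 0.64 (permutation test, p = 0.0122, adjusted p = 0.288) and rho = 0.57 (permutation test, p = 0.0333, adjusted p = 0.563), and r = 0.66 without the 2 libraries farthest from the median of NPAS2. ARNTL and PER3 gave r = -0.58 (permutation test, p = 0.0128, adjusted p = 0.288) and rho = -0.46 (permutation test, p = 0.0835, adjusted p = 0.752), and r = -0.35 without the 2 farthest libraries. For NR1D1 and NR1D2, r was 0.59 (permutation test, p = 0.0294, adjusted p = 0.441) and rho 0.53 (permutation test, p = 0.0501, adjusted p = 0.563), with r = 0.33 without the 2 farthest libraries. CRY2 and PER1 had the smallest p by rank, rho = 0.67 (permutation test, p = 0.00519, adjusted p = 0.234), against r = 0.44 (permutation test, p = 0.108, adjusted p = 0.738). Over all pairs r ranged from -0.58 to 0.64 with a median of 0.04, and 25 pairs were positive. No pair of core clock genes was thus shown to vary together within diets, at 17 libraries.

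**Figure D4:**
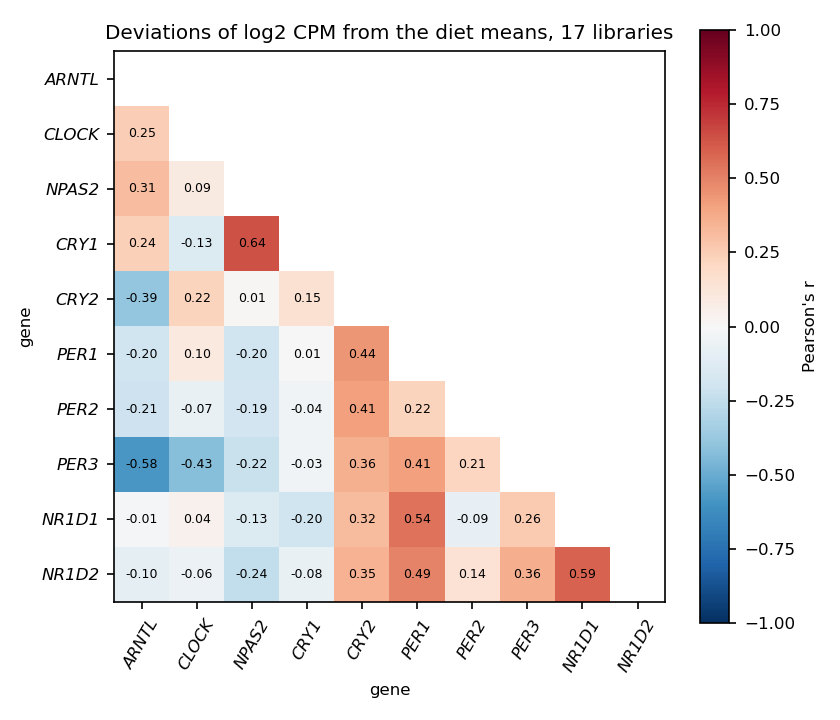
Pearson's r between the 10 core clock genes (both axes), from the departures of 17 libraries from the mean log2 CPM of their diet, on a colour scale from -1 to 1. The strongest cells are NPAS2 with CRY1 (0.64), NR1D1 with NR1D2 (0.59) and ARNTL with PER3 (-0.58), and no pair had an adjusted p under 0.05.

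Other genes whose deviations were most like those of a clock gene were taken from 10638 named genes with a mean of at least 1 CPM, as a description over the same 17 libraries, which share their normalization. The highest r with ARNTL was that of ZNF148 (0.87), a zinc finger transcription factor, followed by ARHGAP18 (0.82), DACT1 (0.81), TMCC2 (0.80) and C1H6orf183 (0.78), and the lowest were TFB2M (-0.87), a mitochondrial transcription factor, NOC3L (-0.84) and NUBP1 (-0.83). With PER1 the highest were ACADVL (0.87), an enzyme of fatty acid oxidation, SMTNL1 (0.87), BCKDHA (0.85), PDE4C (0.83) and GOT2 (0.83), and the lowest S100A11 (-0.92), GJA1 (-0.89) and PDLIM2 (-0.89). ACADVL, SMTNL1, BCKDHA, PDE4C and GOT2 had ULU vs control log2(fold change) values of 0.64, 0.92, 0.45, 0.43 and 0.46. Those values are opposite in sign to the -1.70 of PER1. These genes were picked for the highest r among 10638, so their high r within diets was fixed by that choice and is not a finding. With PER2 the highest were GOLGA1 (0.75), CACTIN (0.73), MYL3 (0.72), PPP1CC (0.72) and MYL2 (0.71), of which MYL3 and MYL2 are slow fibre myosin light chains, and the lowest ATP8B1 (-0.74), CAPN10 (-0.68) and ATL3 (-0.67). No other core clock gene was among these for ARNTL, PER1 or PER2. Among the other clock genes listed below, r with PER1 ran from -0.21 for DBP to 0.82 for USP2, which ranked 9 of 10638.

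Around the core loop lie genes that it drives and proteins that act on its parts. A list of 29 was taken for these, of which 28 were tested and RORB, at a control mean of 0.207 CPM, was not. In ULU vs control 1 of the 28 passed the test, beside 2.98% of all genes tested. It was also the only one whose diets did not overlap, beside 3.39% of all genes. A count of 1 in 28 lies near both shares, so nothing about the list is read from it. The gene was NFIL3 (ENSSSCG00000009592), a repressor that opposes the D-box activators. It had a control mean of 7.95 ± 2.02 CPM (SD, n = 6) and a ULU mean of 16.9 ± 5.52 CPM (SD, n = 5), with the UL mean at 9.81 ± 4.51 CPM (SD, n = 6). Its log2(fold change) was 1.09 (SE 0.29, adjusted p = 0.0485, edgeR), higher in 5 of 5 ULU piglets than in any control piglet. The adjusted p was close to the limit, and NFIL3 lost its call in 12 of 17 fits with a single library removed, namely those without each of the control piglets 22 to 26, the UL piglets 28 to 30 and the ULU piglets 40 to 43. Over all 17 such fits its log2(fold change) ran from 0.89 to 1.21 and its adjusted p from 0.0377 to 0.096 (edgeR). With the number of counted reads as a covariate its log2(fold change) was 0.91 (adjusted p = 0.351, edgeR). With an unadjusted p under 0.05 there were 9 of 28, beside 18.9% of all genes. The median log2(fold change) of the 28 was 0.01, with 14 above 0 and 14 below.

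Among the 10 clock-controlled outputs and E-box repressors, NFIL3 passed and 9 did not, beside 2.98% of all genes that passed. DBP, usually among the most strongly rhythmic direct targets of ARNTL and CLOCK, was level, with a control mean of 3.46 ± 1.43 CPM (SD, n = 6), a ULU mean of 3.45 ± 0.86 CPM (SD, n = 5) and a log2(fold change) of -0.002 (SE 0.27, adjusted p = 0.998, edgeR). Its relative TEF had a log2(fold change) of -0.70 (SE 0.24, adjusted p = 0.108, edgeR) and HLF one of 0.14 (SE 0.16, adjusted p = 0.684, edgeR). CIART, which represses the ARNTL and CLOCK pair, had -0.70 (SE 0.23, adjusted p = 0.0957, edgeR), and the cell cycle kinase gene WEE1 -0.79 (SE 0.27, adjusted p = 0.116, edgeR). USP2, a ubiquitin protease, had -0.49 (SE 0.17, adjusted p = 0.108, edgeR) and BHLHE40, an E-box repressor, 0.45 (SE 0.19, adjusted p = 0.211, edgeR). NAMPT, the enzyme that limits NAD+ salvage, had 184 CPM in control and 197 CPM in ULU (log2(fold change) 0.10, SE 0.14).

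None of the 3 tested receptors and paralogues and none of the 15 kinases, ubiquitin ligases and other modifiers passed the test in ULU vs control. Since 2.98% of all genes passed, lists this short could well hold none, and nothing is read from these counts. The highest of these in CPM were CSNK2A1 and CSNK1A1, which encode casein kinase subunits that phosphorylate clock proteins, and HUWE1, a ubiquitin ligase. Their log2(fold change) values were 0.23 (SE 0.10), 0.05 (SE 0.12) and -0.001 (SE 0.12). CSNK2B, the regulatory subunit of casein kinase 2, came nearest to the limit at 0.38 (SE 0.10, adjusted p = 0.056, edgeR). In UL vs control 0 of the 28 were called, beside 0.0% of all genes, and DESeq2 called 0 of the 28 too. There, 3 had an unadjusted p under 0.05, beside 10.8% of all genes. In ULU vs UL edgeR called 0, beside 0.0352% of all genes, with 7 at an unadjusted p under 0.05, again beside 10.8%. DESeq2 called 1 there, CSNK2A1 (log2(fold change) 0.34, adjusted p = 0.0276 on all 17 libraries). DESeq2 gave NFIL3 no adjusted p in ULU vs UL, so the DESeq2 count was not over all 28. The share of all genes that DESeq2 called is not given here, so nothing is read from that count.

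**Figure D5:**
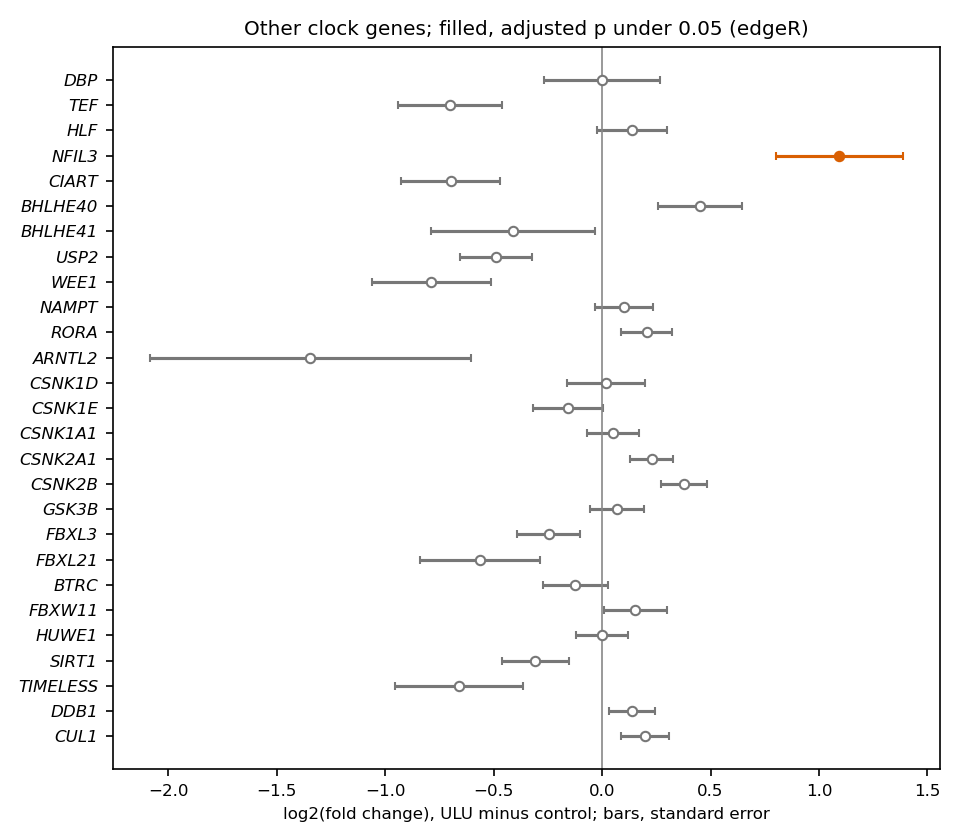
ULU vs control log2(fold change) of other clock genes (horizontal axis; bars, standard error), in the order outputs and repressors, receptors and paralogue, then modifiers. NFIL3 at 1.09 is the one filled point, with an adjusted p under 0.05 in the edgeR test, and DBP lies at -0.002.

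Because glucocorticoids raise PER1 directly, a list of 7 genes was examined beside it, made up of glucocorticoid-induced genes and the receptor gene NR3C1. In none of the 3 comparisons did edgeR call any of them. The shares of all genes called were 0.0% in UL vs control, 2.98% in ULU vs control and 0.0352% in ULU vs UL. At those shares a list of 7 could well hold none. With an unadjusted p under 0.05 there were 3 of 7 in UL vs control, beside 10.8% of all genes. There were 2 in ULU vs control, beside 18.9%, and 0 in ULU vs UL, beside 10.8%. In ULU vs control the log2(fold change) was -0.80 for ZBTB16 (SE 0.24, adjusted p = 0.0713, edgeR), -0.54 for KLF9 (SE 0.20, adjusted p = 0.14, edgeR), -0.56 for FKBP5 (SE 0.35, adjusted p = 0.41, edgeR) and -0.79 for KLF15 (SE 0.44, adjusted p = 0.353, edgeR). TSC22D3 had -0.24, SGK1 0.43 and the receptor gene NR3C1 0.21. The list's median was -0.54, against -1.70 for PER1, and 5 of the 7 values were below 0. Control piglet 25, which had the highest PER1, was also the highest control piglet for FKBP5 (118 CPM, against 22.8 to 51.0 CPM in the others), KLF9, TSC22D3 and KLF15. It was not the highest for ZBTB16 (60.9 CPM, against 88.8 CPM in piglet 23) or SGK1 (45.1 CPM, against 49.8 CPM in piglet 21). For NR3C1 it was the lowest control piglet, at 46.3 CPM. Without piglet 25 the ULU vs control values were -0.14 for FKBP5, -0.32 for KLF9, -0.08 for TSC22D3 and -0.58 for KLF15. They were -0.79 for ZBTB16, 0.495 for SGK1 and 0.14 for NR3C1. That comparison was added after the values were seen. The part of such inputs in the PER1 values was not tested.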

How the data were processed

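The 10 genes and all gene lists were chosen with earlier results of these data known. The authors trimmed reads with fastp, aligned them with HISAT2 to Sscrofa11.1 and counted reads per Ensembl 104 gene with featureCounts 2.0.1 per the file header. The deposited counts are raw reads per gene, from 17 libraries, counted without strand, and reads that mapped to several places or fell on more than 1 gene were not counted. The deposited table also holds a mean signal per gene over all libraries, computed by the authors and used here only as a check. No column of the authors' own comparisons was used.

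Counts were normalized with TMM and tested with edgeR 4.0.16 (quasi-likelihood F test) in 1 model of 17 libraries, after filterByExpr left 14203 genes, with Benjamini-Hochberg adjustment over all of them. CPM used each library's total scaled by its TMM factor, and correlations used log2 CPM with a prior count of 2 and 100000 permutations within diets. DESeq2 1.42.0, other normalizations and filters, and leaving out each library were alternatives, and the edgeR fit and the correlation test were tested on simulated data. Of the 10 genes, 9 were named by Ensembl ID and PER3 by its position in the RefSeq table of Sscrofa11.1. Libraries are 1 per piglet, and no shared litter or batch is stated. The genes named were the 10 themselves, other clock genes with an adjusted p under 0.05 in any comparison and the 4 highest of the rest in CPM, the 5 highest and 3 lowest by correlation, and all 7 genes of the glucocorticoid list, which includes the receptor gene NR3C1. TEF, CIART, WEE1, USP2, BHLHE40, HLF, DBP and CSNK2B were named after their values were seen. Promoter sequences were not analysed here. A few genes of the lists are not reported singly here.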

Additional observations from a re-analysis of the deposited data

Results flagged for a closer look

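Among the values by diet of the 10 core clock genes and 5 further clock genes (45 groups of 5 or 6 libraries), 4 had 1 library far from the rest by Dixon's test, where chance gives about 1 in 20. Control piglet 23 had 42.6 CPM of CRY2, against 30.8 to 33.0 CPM in the other control piglets. Control piglet 25 had 60.4 CPM of PER1, against 27.3 to 34.3 CPM in the others. UL piglet 27 had 5.51 CPM of PER3, against 3.06 to 3.69 CPM in the others. Control piglet 25 also had 187 CPM of CSNK2A1, against 142 to 157 CPM in the others. All 3 of the core clock values were the highest of their diet.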

How the results depend on the processing

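No paired analysis was possible because the labels do not say which piglets, if any, were matched across diets for pair-feeding. In ULU vs control, 4 of the 10 core clock genes were DEGs, 3 to 4 in the alternative fits, and 6 passed by adjusted p alone. In ULU vs UL the count of 1 became 0 with DESeq2 (both on the 2 diets and on all 17 libraries) and 2 with no filter on low counts, and ranged from 1 to 2 without single libraries. The DESeq2 log2(fold change) of PER2 there was -1.475 and -1.476. DESeq2 gave NFIL3 no adjusted p in ULU vs UL, and PER2 had fewer reads than NFIL3 in every UL and ULU library. PER2 may thus have been left out of the DESeq2 adjustment, so its missing call there cannot be read as a failed test or as a missing one. Whether PER3 had an adjusted p in ULU vs control with DESeq2 on the 2 diets is not given here either. Of the other clock genes, 1 was called in ULU vs control, 2 by DESeq2 on the 2 diets (NFIL3 and CSNK2B), 4 by DESeq2 on all 17 libraries (with TEF and CIART), 0 with the number of counted reads as a covariate, and 0 to 1 without single libraries. Without ULU piglet 43 the 1 called was USP2, and without control piglet 25 it was CSNK2B, in place of NFIL3. In ULU vs UL the count of 0 became 1 with DESeq2 on the 2 diets or on all 17 libraries (CSNK2A1 in both). That DESeq2 count was not over all of these genes, since NFIL3 had no adjusted p. The cause of these changes was not tested. The shares of all genes called in the alternative fits are not given here, so nothing about the lists is read from these counts. UL vs control gave 0 calls of either group in every alternative run, and no called fold change turned sign. Depth limits PER2 in ULU (28 to 41 reads per library), PER3 in ULU (17 to 53 reads), NPAS2 (10 to 39 reads) and NR1D1 (7 to 120 reads).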
